A study of Mus musculus with 12 samples.

Results

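The 36 genes described here form the cell cycle and proliferation set: 23 mitotic genes, 9 DNA replication genes and 4 genes of G1/S control, taken by symbol from a table of raw counts for 23284 genes. All 36 were in the table, and all 36 were among the 14832 genes that passed the filter on low counts. The RNA came from fibrocartilage of the mandibular condyle, the joint surface of the lower jaw, taken whole with all its cells. Every mouse was a C57BL/6 female whose ovaries were removed at 16 weeks of age and whose tissue was taken 1 week later, at 17 weeks. During that week each mouse carried either a placebo or a pellet of 0.01 mg estradiol (E2) built to release over 60 days. There were 2 libraries of wild-type (WT) mice on placebo, 3 of WT mice on E2, 4 of estrogen receptor alpha knockout (ERalphaKO) mice on placebo and 3 of ERalphaKO mice on E2. How the receptor was deleted, and how many mice went into a library, was not stated in the labels. Levels are CPM (library-size scaled counts) normalized by the trimmed mean of M values, and libraries are listed in the order of their replicate numbers.

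A dividing cell copies its DNA in S phase and separates the copies in mitosis, and different genes are switched on for each step. E2F factors drive the genes of replication once the retinoblastoma protein is inactivated. The DREAM complex represses mitotic genes in cells that do not divide, and its activating counterparts with B-Myb and FoxM1 switch them on later. On mitotic genes both act through CHR elements, often next to CCAAT boxes bound by NF-Y. In the condyle, cells that divide lie mainly in the layer beneath the fibrous surface, above the chondrocytes. Bone marrow, which fills the bone under this tissue, also holds many dividing precursors of granulocytes, red cells and B cells.

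Promoters are shown for a few members because mitotic and replication genes differ in the letters they carry. RefSeq promoter windows of build GRCm38.p6, from 250 bases before to 50 bases after each start site, were found for 30 of 36 members. They lacked Tpx2, Kif20a, Ccna2, Aurkb, Mcm4 and Ccne2. Each line gives the 150 bases before the start on the gene's own strand, 5′ to 3′, with every match in capitals, on either strand and with overlaps allowed. Capitals mark CHR letters, spelled TTTGAA or in the other form TTTAAA, and the CCAAT box. They also mark E2F letters, for which the spelling TTCCCGC, the spelling TTGGCGC, the spelling TTCGCGC and the spelling TTGCCGC were searched. The mitotic genes are Mki67 (chr7:135716380-135716529, minus), Cdk1 (chr10:69352913-69353062, minus), Cdc20 (chr4:118437344-118437493, minus) and Plk1 (chr7:122159285-122159434, plus). The replication genes are Mcm6 (chr1:128359706-128359855, minus) and Mcm7 (chr5:138171267-138171416, minus). Mcm7 has a second window, not shown. Its 150 bases before the start (chr5:138171884-138172033, minus) hold CCAAT but no E2F letters, while its whole 300 bases hold 3 E2F matches. The windows of Mcm2, Pcna and Tyms, also not shown, hold no E2F letters, and that of Mcm2 holds CHR letters.
Mki67: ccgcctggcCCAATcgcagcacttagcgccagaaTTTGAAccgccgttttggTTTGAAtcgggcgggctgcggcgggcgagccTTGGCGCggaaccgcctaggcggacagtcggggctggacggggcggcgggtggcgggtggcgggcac
Cdk1: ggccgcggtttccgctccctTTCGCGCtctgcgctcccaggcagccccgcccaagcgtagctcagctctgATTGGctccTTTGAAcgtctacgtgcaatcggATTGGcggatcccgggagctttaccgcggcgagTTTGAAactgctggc
Cdc20: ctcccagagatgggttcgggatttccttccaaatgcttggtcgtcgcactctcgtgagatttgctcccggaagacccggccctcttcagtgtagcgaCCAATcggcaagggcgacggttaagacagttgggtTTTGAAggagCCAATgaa
Plk1: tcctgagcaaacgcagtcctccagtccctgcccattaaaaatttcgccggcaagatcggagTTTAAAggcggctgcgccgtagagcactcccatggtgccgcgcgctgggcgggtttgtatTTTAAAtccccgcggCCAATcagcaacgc
Mcm6: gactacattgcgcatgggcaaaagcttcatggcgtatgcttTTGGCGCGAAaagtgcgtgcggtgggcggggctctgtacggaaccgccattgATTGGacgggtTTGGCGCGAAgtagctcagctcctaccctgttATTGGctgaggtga
Mcm7: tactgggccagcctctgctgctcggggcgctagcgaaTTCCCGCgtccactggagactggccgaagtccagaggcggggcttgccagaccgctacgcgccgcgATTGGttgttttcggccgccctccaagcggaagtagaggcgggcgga
In the whole windows of 300 bases, CHR letters were present in 17 of 19 mitotic members (89.5%) and 3 of 8 replication members (37.5%), against 30.6% of the 27025 genes in the promoter table. E2F letters went the other way, with 3 of 19 mitotic members (15.8%), 5 of 8 replication members (62.5%) and 10.9% of all genes. CCAAT did not separate the classes, being present in 17 of 19 mitotic members (89.5%) and 7 of 8 replication members (87.5%), beside 41.1% of all genes. Of the 3 G1/S members with a window, 1 held CHR letters, 1 held E2F letters and 0 held CCAAT. A match is a run of letters and not a measured binding site.

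The libraries held 9696434 to 28750636 counts in total, and the members had between 26 counts (Cdc6) and 4912 counts (Mki67) in a single library. Esr1, the gene deleted in ERalphaKO, was at 17.5 and 14.2 CPM in WT placebo, 10.6, 8.52 and 12 in WT E2, 3.65, 5.68, 4.03 and 5.15 in ERalphaKO placebo, and 5.66, 5.78 and 4.55 in ERalphaKO E2. It was lower in every ERalphaKO library than in every WT library, though reads remained. Genes that mark the tissue were present in every library, with Col2a1 at 1160 to 14800 CPM, Acan at 620 to 1960, Sox9 at 44.6 to 123 and Prg4 at 66 to 390. Markers of marrow differed far more between libraries than the members did. The mean log2 CPM of 15 granulocyte markers ran from -2.08 to 8.74, and that of 12 B-lineage markers from -2.08 to 4.14.

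Across the 12 libraries the members moved largely as a block. ERalphaKO placebo library 3 was the highest library for 34 of 36 members, all but Ccne1 (highest in WT placebo library 2) and Ccne2 (highest in ERalphaKO placebo library 4). The lowest library was WT E2 library 1 for 16 members, WT E2 library 2 for 12, ERalphaKO E2 library 2 for 7 and WT placebo library 2 for 1. ERalphaKO E2 library 2 also had the smallest total count, 9696434. The ratio of the highest to the lowest library ran from 1.73 for Mcm4 to 5.97 for Plk1.

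**Figure D1:**
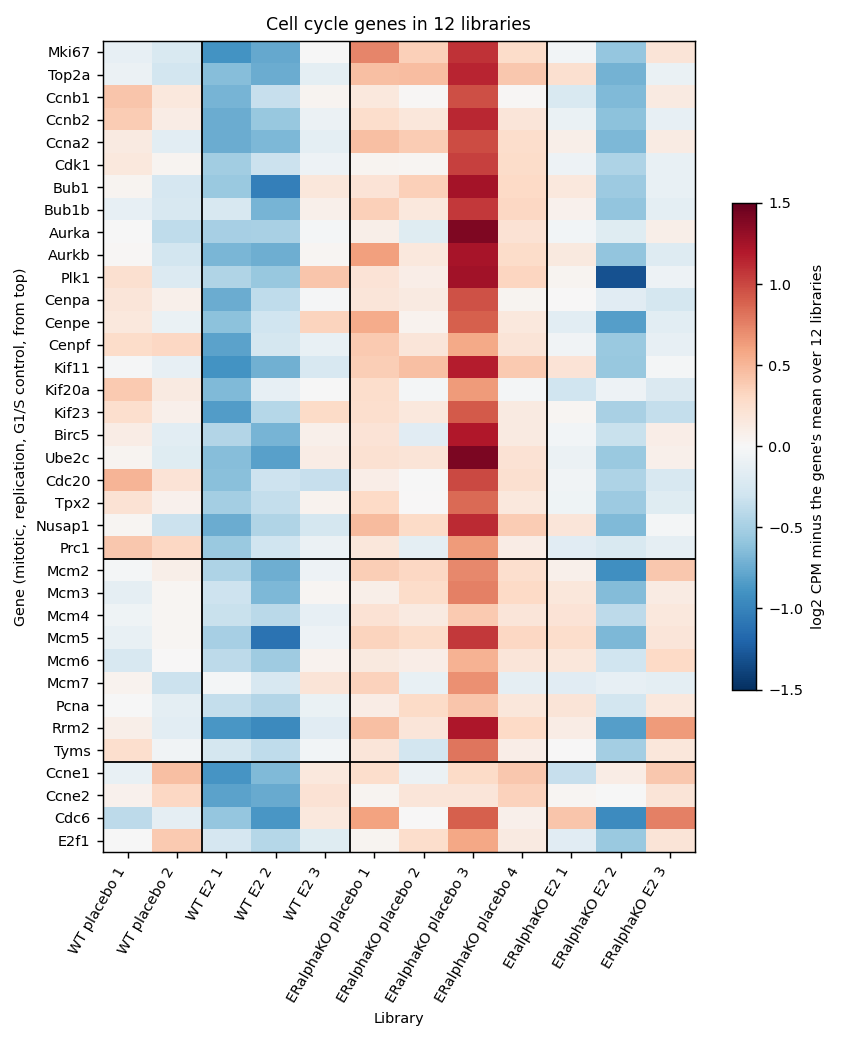
Colour gives log2 CPM minus the gene's mean over 12 libraries, with 1 row per member and 1 column per library; horizontal lines separate mitotic, replication and G1/S genes and vertical lines the groups. ERalphaKO placebo library 3 was highest for 34 of 36 members, and WT E2 libraries 1 and 2 and ERalphaKO E2 library 2 held the lowest value of 35.

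The kinases and cyclins that bring a cell into mitosis came first. Cdk1, the kinase that starts mitosis, was at 24.3 and 22.3 CPM in WT placebo, 15.1, 17.4 and 20.6 in WT E2, 22.3, 22.1, 44.2 and 26.3 in ERalphaKO placebo, and 20.5, 15.7 and 20.1 in ERalphaKO E2. Its E2 libraries all lay below the placebo libraries of the same genotype. Cyclin B1 (Ccnb1), the partner that activates this kinase, was at 9.97 and 8.35 CPM in WT placebo, 4.62, 5.88 and 7.68 in WT E2, 8.32, 7.58, 14.6 and 7.56 in ERalphaKO placebo, and 6.38, 4.73 and 8.23 in ERalphaKO E2. In WT the E2 libraries lay below both placebo libraries, whereas in ERalphaKO the groups overlapped. Cyclin B2 (Ccnb2) was at 23.6 and 19.6 CPM in WT placebo, 10.8, 12.2 and 17.1 in WT E2, 21.7, 20.3, 39.6 and 20.6 in ERalphaKO placebo, and 16.9, 11.8 and 16.6 in ERalphaKO E2. Cyclin A2 (Ccna2), used in both S phase and mitosis, was at 31.9 and 25.9 CPM in WT placebo, 17.3, 18.1 and 26.1 in WT E2, 39.5, 37.7, 57.3 and 34.7 in ERalphaKO placebo, and 30.7, 18.2 and 31.5 in ERalphaKO E2. For both of these cyclins the ERalphaKO E2 libraries all lay below the ERalphaKO placebo libraries. Plk1, a kinase of centrosome maturation and mitotic exit, was at 9.56 and 7 CPM in WT placebo, 5.92, 5.46 and 10.8 in WT E2, 9.34, 8.62, 19.4 and 10.1 in ERalphaKO placebo, and 8.31, 3.26 and 7.67 in ERalphaKO E2. Its highest and lowest libraries were ERalphaKO placebo library 3 and ERalphaKO E2 library 2. Aurora B (Aurkb), the kinase that corrects faulty attachments of chromosomes to the spindle, was at 10.9 and 8.9 CPM in WT placebo, 6.67, 6.5 and 11 in WT E2, 16.5, 12, 25.3 and 13 in ERalphaKO placebo, and 11.9, 7.15 and 9.4 in ERalphaKO E2. Again ERalphaKO placebo library 3 stood highest.

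Genes of the spindle checkpoint and of the ubiquitin ligase it restrains followed the same order. Bub1, a checkpoint kinase, was at 9.62 and 7.84 CPM in WT placebo, 6.37, 4.57 and 10.5 in WT E2, 10.8, 12, 22.2 and 11.5 in ERalphaKO placebo, and 10.4, 6.41 and 8.64 in ERalphaKO E2. BubR1 (Bub1b), its relative that holds back anaphase, was at 18.2 and 16.8 CPM in WT placebo, 16.7, 12.2 and 20.8 in WT E2, 25.4, 22.1, 41.1 and 24.5 in ERalphaKO placebo, and 20.7, 13.1 and 17.9 in ERalphaKO E2. Both were higher in every ERalphaKO placebo library than in either WT placebo library. Cdc20, the activator that the checkpoint blocks, was at 17.6 and 14.3 CPM in WT placebo, 7.98, 10 and 9.73 in WT E2, 13.2, 12.3, 24.6 and 14.6 in ERalphaKO placebo, and 11.9, 8.94 and 10.5 in ERalphaKO E2. Here both WT placebo libraries lay above every E2 library of either genotype. Ube2c, the enzyme that loads ubiquitin for the same ligase, was at 14.3 and 12.2 CPM in WT placebo, 8.93, 7.86 and 15 in WT E2, 16.2, 15.9, 36.9 and 16.1 in ERalphaKO placebo, and 13.1, 9.46 and 14.6 in ERalphaKO E2. Its value in ERalphaKO placebo library 3 was more than that of any other library by a wide margin.

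Among the spindle proteins, Kif11, the motor that pushes the spindle poles apart, was at 25 and 23.2 CPM in WT placebo, 13.6, 15.4 and 21.4 in WT E2, 32.6, 34.7, 57.3 and 33.3 in ERalphaKO placebo, and 29.2, 17 and 24.7 in ERalphaKO E2. Every ERalphaKO placebo library exceeded every WT library. Tpx2, which activates aurora A and nucleates microtubules, was at 29.9 and 27.1 CPM in WT placebo, 18.2, 20.2 and 26.8 in WT E2, 31.9, 25.9, 46.4 and 28.9 in ERalphaKO placebo, and 24.7, 17.7 and 22.8 in ERalphaKO E2. Nusap1, a microtubule bundling protein, was at 19.9 and 15.6 CPM in WT placebo, 11.7, 14.3 and 16.3 in WT E2, 27.2, 23.8, 42.6 and 25.4 in ERalphaKO placebo, and 22.1, 12.4 and 19.2 in ERalphaKO E2. For Nusap1 too the 4 ERalphaKO placebo libraries lay above all 5 WT libraries. Prc1, which bundles the central spindle for cell division, was at 40 and 37.6 CPM in WT placebo, 20.6, 24.6 and 28.5 in WT E2, 34, 27.5, 47.3 and 32.7 in ERalphaKO placebo, and 27, 25.8 and 27.6 in ERalphaKO E2. It was set apart from most members by its WT placebo level, which exceeded all libraries but ERalphaKO placebo library 3. Birc5 (survivin), a subunit of the chromosomal passenger complex, was at 15.2 and 12.6 CPM in WT placebo, 10.4, 8.71 and 14.9 in WT E2, 16.3, 12.5, 32.3 and 15.5 in ERalphaKO placebo, and 13.7, 11.2 and 15.1 in ERalphaKO E2. Its ERalphaKO groups overlapped. Cenpf, a protein of the outer kinetochore, was at 26.3 and 27 CPM in WT placebo, 12.5, 18.1 and 20.2 in WT E2, 28.7, 24.7, 32.3 and 24.9 in ERalphaKO placebo, and 21.1, 14.8 and 20 in ERalphaKO E2. The placebo libraries of each genotype lay above its E2 libraries.

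Mki67 and Top2a are used widely as markers of dividing cells. Mki67, which coats mitotic chromosomes, was at 82.2 and 76.3 CPM in WT placebo, 48.3, 52.6 and 89.3 in WT E2, 149, 115, 190 and 109 in ERalphaKO placebo, and 87.3, 60.2 and 103 in ERalphaKO E2. Topoisomerase II alpha (Top2a), which untangles sister chromatids, was at 63.4 and 55.6 CPM in WT placebo, 43.3, 40.3 and 60.6 in WT E2, 92.1, 92.4, 148 and 89.1 in ERalphaKO placebo, and 79.2, 41.1 and 63 in ERalphaKO E2. For both, every ERalphaKO placebo library lay above all other libraries, with the nearest others at 103 CPM for Mki67 and 79.2 CPM for Top2a.

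Replication genes were described next. The subunits of the MCM helicase, which unwinds DNA at the fork, included Mcm2 at 21.4 and 23.1 CPM in WT placebo, 15.8, 13.1 and 20.7 in WT E2, 28.1, 26.9, 36 and 25.9 in ERalphaKO placebo, and 23, 11.5 and 28.7 in ERalphaKO E2. Mcm3 was at 22.5 and 25.2 CPM in WT placebo, 19.9, 15.5 and 25.2 in WT E2, 26.3, 29.8, 41.8 and 30.5 in ERalphaKO placebo, and 27.7, 15.8 and 27 in ERalphaKO E2. In each of these, ERalphaKO E2 library 2 lay close to the lower WT E2 libraries and apart from its own group. Mcm5 was at 19.5 and 21.4 CPM in WT placebo, 14.9, 9.79 and 20 in WT E2, 26.6, 25.5, 43.9 and 26.1 in ERalphaKO placebo, and 25.2, 13.2 and 23.8 in ERalphaKO E2. Mcm6 was at 48.3 and 57.3 CPM in WT placebo, 43.6, 39.6 and 59.1 in WT E2, 63.3, 61.3, 81.8 and 65 in ERalphaKO placebo, and 64.1, 46.5 and 70.6 in ERalphaKO E2. ERalphaKO placebo exceeded WT placebo without overlap for both, and Mcm5 was the only replication member whose ERalphaKO groups did not overlap. PCNA (Pcna), the sliding clamp of the polymerases, was at 20.4 and 18.4 CPM in WT placebo, 15.9, 15.1 and 19 in WT E2, 22, 24.9, 27.2 and 23 in ERalphaKO placebo, and 23.3, 16.8 and 22.8 in ERalphaKO E2. Its 4 ERalphaKO placebo libraries lay above both WT placebo libraries. Rrm2, the regulated subunit of ribonucleotide reductase that makes deoxynucleotides, was at 23.2 and 19.6 CPM in WT placebo, 11.9, 11.3 and 19.4 in WT E2, 29.9, 24.8, 50.6 and 26.9 in ERalphaKO placebo, and 23.5, 12.3 and 33.9 in ERalphaKO E2. ERalphaKO E2 library 3 was exceeded only by ERalphaKO placebo library 3, so the ERalphaKO groups overlapped.

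The G1/S genes were mixed. Cyclin E1 (Ccne1), the partner of CDK2 at S phase entry, was at 5.28 and 7.84 CPM in WT placebo, 3.11, 3.62 and 6.4 in WT E2, 6.88, 5.37, 7.01 and 7.56 in ERalphaKO placebo, and 4.52, 6.2 and 7.56 in ERalphaKO E2. Its groups overlapped in all comparisons within a genotype or a treatment. Cdc6, which loads the MCM helicase at origins, was at 3.99 and 4.76 CPM in WT placebo, 3.51, 2.87 and 5.84 in WT E2, 7.96, 5.28, 9.76 and 5.51 in ERalphaKO placebo, and 6.99, 2.73 and 8.84 in ERalphaKO E2. The 4 ERalphaKO placebo libraries lay above both WT placebo libraries, while ERalphaKO E2 spanned nearly the whole range. E2f1, an activator of the replication genes, was at 9.97 and 13.2 CPM in WT placebo, 8.43, 7.44 and 8.86 in WT E2, 10.3, 12, 15 and 11 in ERalphaKO placebo, and 8.91, 6.83 and 11.5 in ERalphaKO E2. In WT its E2 libraries lay below both placebo libraries.

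**Figure D2:**
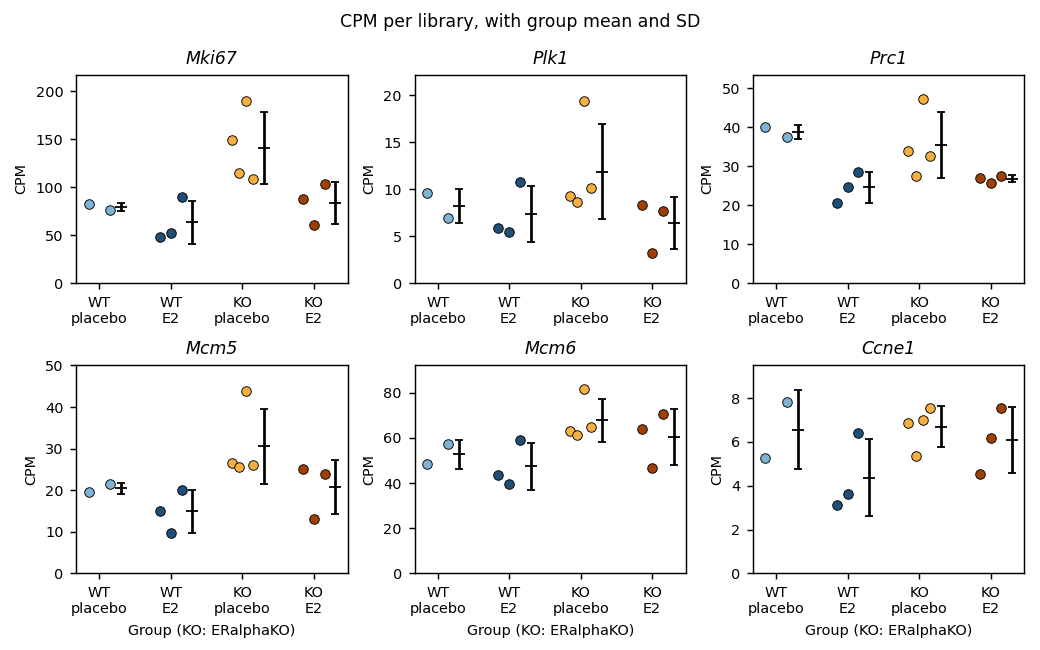
Each point is the CPM of 1 library for 6 members, with the group mean and SD beside the points; axes start at 0. Plk1 and Mki67 peaked at 19.4 and 190 CPM in ERalphaKO placebo library 3, Prc1 was higher in both WT placebo libraries than in any E2 library, and Ccne1 overlapped between the groups of either genotype.

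The first comparison asks what E2 did in WT tissue. Cell cycle genes were lower in 2 of 3 E2 libraries, but no single gene passed the test. Mean log2 CPM over the mitotic members was 4.33 and 4.12 on placebo and 3.54, 3.66 and 4.18 on E2. Over the replication members it was 4.48 and 4.45 on placebo and 4.12, 3.91 and 4.47 on E2. WT E2 library 3 thus lay within the placebo range, and the other two lay below it. The log2 fold change was negative for 35 of 36 members, Mcm7 (0.11) being the exception, and for 50.9% of all genes. Its median was -0.39 in mitotic, -0.26 in replication and -0.52 in G1/S members, and 0 over all genes. Leaving out 1 library moved the mitotic median between -0.24, without WT E2 library 1, and -0.65, without WT E2 library 3. It moved the replication median between -0.21, without WT E2 library 2, and -0.42, without WT E2 library 3. In a tissue sample, fewer cells of a type and less RNA per cell cannot be told apart.

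With edgeR's quasi-likelihood test and Benjamini-Hochberg adjustment, 0 of 36 members were called in WT, beside 0.371% of all genes called higher on E2 and 0.0876% called lower. DESeq2 also called 0. At an unadjusted p under 0.05 there were 4 members in edgeR, all mitotic and lower, against 3.73% of all genes called lower on that rule, and 5 members in DESeq2. Lowest in p was Prc1, with a log2 fold change of -0.66 (SE 0.20) and an edgeR adjusted p of 0.3. Among replication members it was Mcm4 at -0.26 (SE 0.16, edgeR adjusted p = 0.742), and in the G1/S class E2f1 at -0.49 (SE 0.23, edgeR adjusted p = 0.621). All E2 libraries lay below both placebo libraries for 14 members, of which 10 were mitotic, 3 replication and 1 G1/S. That is 38.9% of members beside 13.7% of all genes. The labels do not say that replicates are separate animals, so p-values measure the spread between these samples.

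Markers of other cell types differed between these WT groups too. Of 10 tested macrophage markers 9 were higher on E2, with a median log2 fold change of 0.86, and 6 had an unadjusted edgeR p under 0.05. All 7 tested adipocyte markers were lower, with a median of -4.3 and 6 at that p. Their mean log2 CPM was -0.969 and 2.444 on placebo and -1.038, -2.245 and -1.943 on E2, so WT placebo library 2 stood apart. Adipoq was higher in both placebo libraries (7.57 and 15.8 CPM) than on E2 (1.56, 0.0471 and 1.02). None of either list was called, the lowest edgeR adjusted p being 0.11 for macrophage and 0.192 for adipocyte markers. Of 10 fibrous markers 7 were lower and 3 higher, with a median of -0.45, and 4 had an unadjusted edgeR p under 0.05. All 8 endothelial markers were higher, with a median of 0.38 and 0 at that p. No fibrous or endothelial marker was called. Granulocyte marker means were 2.95 and 0.34 on placebo and -1.74, -2.08 and 3.75 on E2. With the granulocyte mean added to the edgeR fit, the mitotic median was -0.27 and the replication median -0.18. The part of all these markers in the members' values was not tested.

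In ERalphaKO tissue no member was called either. The mitotic and replication medians lay further below 0 than in WT, and the G1/S median lay nearer to 0. Mean log2 CPM of the mitotic members was 4.48, 4.31, 5.21 and 4.39 on placebo, and 4.16, 3.64 and 4.10 on E2. Each E2 library thus lay below each placebo library. Replication members were at 4.75, 4.64, 5.24 and 4.69 on placebo and at 4.61, 3.98 and 4.73 on E2, and there the groups overlapped. All 36 fold changes were negative, beside 50% of all genes. The median was -0.66 in mitotic, -0.38 in replication and -0.16 in G1/S members, and 0 over all genes.

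The test called 0 of 36 members in ERalphaKO with edgeR and 0 with DESeq2, beside 0% of all genes in either direction with edgeR. At an unadjusted p under 0.05 edgeR gave 18 members and DESeq2 20, all of them mitotic, and 4.22% of all genes were lower on E2 at that edgeR threshold. Cenpf had the lowest p, at -0.56 (SE 0.18, edgeR adjusted p = 0.848). Plk1 had the largest change, at -0.87 (SE 0.39, edgeR adjusted p = 0.876). Replication members reached at most Mcm3, at -0.44 (SE 0.23, edgeR adjusted p = 0.905), and G1/S members E2f1, at -0.40 (SE 0.19, edgeR adjusted p = 0.878). The groups did not overlap for 20 members, namely 19 of 23 mitotic genes and, among 9 replication genes, Mcm5. Over all genes, 3.09% were lower in this way.

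Single libraries and marrow markers moved with this comparison. Without ERalphaKO placebo library 3 the mitotic median was -0.43 and the replication median -0.19, with 11 members at an unadjusted edgeR p under 0.05. All 6 early granulocyte markers (Elane, Mpo, Prtn3, Ctsg, Ms4a3 and Fcnb) were lower on E2, with a median log2 fold change of -4.21. All 12 B-lineage markers were lower too, with a median of -1.5, and 14 of 14 tested skeletal muscle markers, with a median of -5.72. None of these 32 markers passed the edgeR test, whose adjusted p was 0.848 or more. Other marrow markers were mixed. Of 9 late granulocyte markers 7 were lower and 2 higher, with a median of -1.18. Of 9 tested erythroid markers 8 were higher and 1 lower, with a median of 0.42. Elane was at 44.2, 0.0451, 201 and 28.9 CPM in ERalphaKO placebo and at 8.49, 0.21 and 0.664 in ERalphaKO E2. With the granulocyte marker mean added to the edgeR fit, the mitotic median was -0.55 and the replication median -0.29. With the B-lineage marker mean in its place the medians were -0.48 and -0.12, and 0 members kept an unadjusted p under 0.05.

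Under placebo most members had higher point estimates in ERalphaKO than in WT, but none was called. Mitotic means of 4.48, 4.31, 5.21 and 4.39 in ERalphaKO stood beside 4.33 and 4.12 in WT, and replication means of 4.75, 4.64, 5.24 and 4.69 beside 4.48 and 4.45. The replication means did not overlap, and the mitotic means did. Fold changes were positive for 33 of 36 members and 52.1% of all genes. Their median was 0.47 in mitotic, 0.36 in replication and 0.04 in G1/S members, beside 0.01 over all genes. The WT placebo libraries are those used in the E2 comparison of WT, and the ERalphaKO placebo libraries those used in ERalphaKO, so these comparisons are not independent.

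None of the 36 members was called under placebo by edgeR or DESeq2, and 0% of all genes were called higher and 0.0135% lower by edgeR. An unadjusted p under 0.05 was reached by 6 members in edgeR, all mitotic and higher, and 8 in DESeq2, beside 5.07% of all genes higher in edgeR. Top2a led with a log2 fold change of 0.83 (SE 0.29, edgeR adjusted p = 0.457), and Mki67 gave the same size, 0.83 (SE 0.31, edgeR adjusted p = 0.477). Pcna led the replication members with 0.32 (SE 0.15, edgeR adjusted p = 0.573) and Cdc6 the G1/S members with 0.70 (SE 0.44, edgeR adjusted p = 0.69). All ERalphaKO libraries lay above both WT libraries for 17 members (9 mitotic, 7 replication and Cdc6), beside 10.5% of all genes. Replication genes did so in 7 of 9, all but Mcm7 and Tyms, the latter being thymidylate synthase.

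Marrow markers also differed between these same groups. All 12 B-lineage markers were higher in ERalphaKO placebo, with a median log2 fold change of 6.7. So were all 6 early granulocyte markers, with a median of 7.54, and 9 of 9 late granulocyte markers, with a median of 3.13. Their lowest edgeR adjusted p was 0.33. Granulocyte marker means overlapped, at 3.17, -0.28, 8.74 and 5.96 in ERalphaKO placebo and 2.95 and 0.34 in WT placebo. With the granulocyte mean in the fit the median fold change was 0.1 for mitotic and 0.21 for replication members. With the B-lineage mean it was 0.01 and -0.36, so the replication direction turned. Without ERalphaKO placebo library 3 the mitotic median was 0.18 and the replication median 0.27. B-lineage marker means did not overlap between the placebo groups, so genotype and this covariate cannot be told apart here.

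Under E2 the genotypes overlapped. The mitotic means of 4.16, 3.64 and 4.10 in ERalphaKO overlapped with 3.54, 3.66 and 4.18 in WT. Replication means were 4.61, 3.98 and 4.73 against 4.12, 3.91 and 4.47, and also overlapped. Medians were 0.18 for mitotic, 0.34 for replication and 0.46 for G1/S members, with 33 of 36 positive, beside 0 and 49.2% over all genes. The edgeR test called 0 of 36 members, as did DESeq2, while 0.452% of all genes were called higher and 0.647% lower by edgeR. Only Pcna had an unadjusted edgeR p under 0.05, at 0.34 (SE 0.14, edgeR adjusted p = 0.398), beside 5.68% of all genes higher at that threshold. DESeq2 gave 3 members there. Kif11 led the mitotic genes with 0.50 (SE 0.26, edgeR adjusted p = 0.513) and Ccne2, the other cyclin E, the G1/S genes with 0.45 (SE 0.25, edgeR adjusted p = 0.559). For 0 of 36 members did the groups separate in either direction, beside 6.97% of all genes higher and 8.94% lower. Without WT E2 library 1 the mitotic median was 0.07, and without WT E2 library 3 it was 0.39.

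Marrow markers differed between the genotypes under E2 as well. All 12 B-lineage markers were higher in ERalphaKO, with a median log2 fold change of 4.86. Of these, 11 had an unadjusted edgeR p under 0.05, and the lowest edgeR adjusted p was 0.0588. All 9 tested erythroid markers (median 3.49) and 9 of 9 late granulocyte markers (median 2.43) were higher too. Early granulocyte markers were mixed, with 4 higher and 2 lower. Outside marrow, 9 of 10 tested macrophage markers were lower (median -0.82, lowest edgeR adjusted p 0.0556). So were all 11 tested cartilage markers (median -1.03) and all 14 tested muscle markers (median -4.15). With the granulocyte mean in the fit the mitotic median was -0.06 and the replication median 0.17. With the B-lineage mean both were -0.09, so the direction turned in both classes. The part of the markers in the members' values was not tested.

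Whether E2 acted differently in the 2 genotypes was tested as an interaction. Its median, ERalphaKO minus WT, was -0.23 in mitotic, -0.01 in replication and 0.27 in G1/S members, beside -0.02 over all genes. The test called 0 of 36 members in edgeR and in DESeq2, and 0 had an unadjusted p under 0.05 in either, beside 3.32% of all genes higher and 3.45% lower at that edgeR threshold. After adjustment edgeR called 0.00674% higher and 0.0472% lower. The lowest p belonged to Bub1b at -0.63 (SE 0.38, edgeR adjusted p = 0.797) among mitotic, Mcm7 at -0.49 (SE 0.31, edgeR adjusted p = 0.804) among replication and Ccne2 at 0.45 (SE 0.37, edgeR adjusted p = 0.851) among G1/S members. Without ERalphaKO placebo library 3 the mitotic median was 0.03. A different E2 effect of the members in the 2 genotypes was thus not shown.

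**Figure D3:**
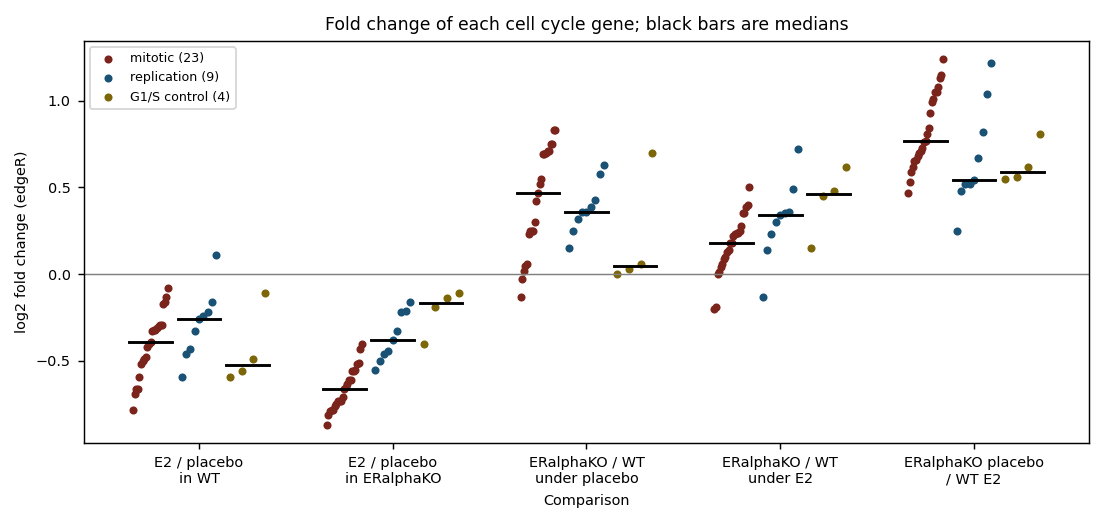
Each point is the edgeR log2 fold change of 1 member in 1 comparison, coloured by class, with the class median as a black bar. Both E2 comparisons lie below 0 except Mcm7 in WT, the mitotic medians are -0.39 in WT and -0.66 in ERalphaKO, and all 36 points are above 0 for ERalphaKO placebo against WT E2.

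A further contrast set ERalphaKO placebo against WT E2, the groups that differ in both receptor and hormone. It was added after the other comparisons had been seen. All 36 members were higher in ERalphaKO placebo, with medians of 0.77 in mitotic, 0.54 in replication and 0.59 in G1/S members beside 0 over all genes. The edgeR test called 4 of 36 members at an adjusted p under 0.05, all 4 mitotic, beside 1.23% of all genes called higher and 1.4% called lower. Kif11 rose by 1.24 (SE 0.25, edgeR adjusted p = 0.0304), Top2a by 1.13 (SE 0.25, adjusted p = 0.0417), Nusap1 by 1.08 (SE 0.25, adjusted p = 0.0469) and Ccna2 by 1.05 (SE 0.24, adjusted p = 0.0469). DESeq2 called 19 members, for which no DESeq2 share of all genes is given here. The groups separated for 22 members, namely 14 of 23 mitotic, 7 of 9 replication and 1 of 4 G1/S genes, beside 7.63% of all genes. Pcna came first among replication members at 0.54 (SE 0.13, edgeR adjusted p = 0.0601) and E2f1 among G1/S members at 0.55 (SE 0.19, edgeR adjusted p = 0.181).

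These edgeR calls were close to the threshold. The count of 4 became 3 without WT E2 library 3 or ERalphaKO E2 library 1, 1 without WT placebo library 1 or 2 or ERalphaKO placebo library 1 or 3, and 9 without ERalphaKO E2 library 2. It became 0 without WT E2 library 1 or 2, ERalphaKO placebo library 2 or 4, or ERalphaKO E2 library 3. The count was 2 with the granulocyte mean in the fit and 0 with the B-lineage or the erythroid mean. Of 12 B-lineage markers 10 were themselves called higher by edgeR, with a median log2 fold change of 6.19 over the list. All 6 early granulocyte markers were higher, with a median of 5.52 and a lowest edgeR adjusted p of 0.0802. With the B-lineage mean in the fit the mitotic median was 0.42 and the replication median 0.02. With the granulocyte mean these medians were 0.42 and 0.36. B-lineage marker means did not overlap between these groups, at 3.42 to 4.14 in ERalphaKO placebo and -2.08 to -0.92 in WT E2. The contrast and the B-lineage covariate thus cannot be told apart here. The part of the markers in the members' values was not tested.

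Calls in the authors' deposited tables are given beside these. In the authors' deposited table of ERalphaKO placebo against WT E2, 16 members were higher at an adjusted p under 0.05, beside 3.9% of all genes. The authors' deposited table named 9 mitotic members (Top2a, Kif11, Ccna2, Nusap1, Mki67, Cenpf, Aurkb, Ccnb2 and Cdc20), 6 replication members (Mcm4, Mcm2, Rrm2, Pcna, Mcm5 and Mcm3) and E2f1. Its largest log2 fold change among them was that of Kif11, 1.19 (SE 0.25, adjusted p = 6.8e-05, the authors' deposited table). For E2 in WT the authors' deposited table had Cdc20 at -0.75 (adjusted p = 0.0236) and Prc1 at -0.64 (adjusted p = 0.025), beside 0.587% of all genes lower. For genotype under placebo the authors' deposited table had Mki67 at 0.8 (adjusted p = 0.0207) and Top2a at 0.79 (adjusted p = 0.0223), beside 1.51% of all genes higher. In ERalphaKO E2 against WT placebo, the authors' deposited table had 1 member called, Prc1 at -0.52 (adjusted p = 0.00396), beside 0.329% of all genes lower. For E2 in ERalphaKO, 0 members were called in the authors' deposited table, beside 0.0165% of all genes higher and 0.0329% lower. For genotype under E2, 0 members were called in the authors' deposited table, beside 1.28% of all genes higher and 2.47% lower.

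Mitotic and replication genes did not keep a constant distance. Their difference in mean log2 CPM also carries the lengths of the genes, so only its change between libraries can be read. Mitotic minus replication was -0.15 and -0.33 in WT placebo and -0.57, -0.25 and -0.29 in WT E2. It was -0.27, -0.32, -0.02 and -0.30 in ERalphaKO placebo and -0.45, -0.35 and -0.63 in ERalphaKO E2. All 3 ERalphaKO E2 libraries lay below the 4 ERalphaKO placebo libraries, which means that the mitotic genes stood lower relative to the replication genes there. In WT the treatments overlapped.

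Set beside marrow content, the libraries at the extremes were the same for both classes. Granulocyte marker means, in log2 CPM, were 2.95 and 0.34 in WT placebo, -1.74, -2.08 and 3.75 in WT E2, 3.17, -0.28, 8.74 and 5.96 in ERalphaKO placebo, and 6.30, -0.84 and 3.06 in ERalphaKO E2. WT E2 libraries 1 and 2 and ERalphaKO E2 library 2 were the lowest 3 in granulocyte markers, in mitotic and in replication genes, and ERalphaKO placebo library 3 was the highest in all. In these low libraries 6, 5 and 5 of 15 granulocyte markers were at 0 counts. Between the extremes the order broke: ERalphaKO E2 library 1, second in granulocyte markers, had a mitotic mean of 4.16, under that of ERalphaKO placebo library 2 (4.31), whose granulocyte mean was only -0.28. WT E2 library 3 had a higher granulocyte mean than either WT placebo library, and the highest mitotic mean of its group.

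Other marrow lineages did not follow the same order. Means of B-lineage markers were -1.51 and -1.50 in WT placebo, -1.55, -2.08 and -0.92 in WT E2, 4.08, 4.14, 3.42 and 3.96 in ERalphaKO placebo, and 3.83, -1.44 and 2.35 in ERalphaKO E2. WT libraries were all low, including those with mitotic means above 4. Means of erythroid markers were 0.33 and -1.30, then -1.40, -1.11 and -1.70, then 1.47, -1.50, 1.01 and -0.61, and -1.19, -1.58 and 1.87 in the same order of groups. They were highest in ERalphaKO E2 library 3, where the replication mean was 4.73. The globin genes Hbb-b1, Hba-a1 and Hba-a2 were listed at 0 in every library, so this list rests on its other genes.

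**Figure D4:**
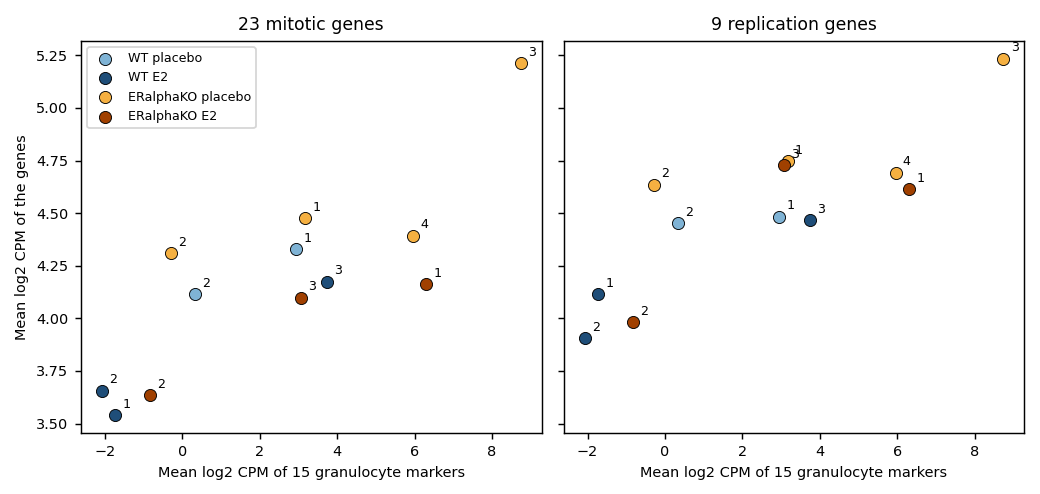
Each point is 1 library, numbered by replicate and coloured by group; the horizontal axis is the mean log2 CPM of 15 granulocyte markers and the vertical axis that of the 23 mitotic (left) or 9 replication (right) members. The 3 libraries lowest in granulocyte markers lie at mitotic means of 3.54 to 3.66, and ERalphaKO placebo library 3 lies alone at 8.74 and 5.21.

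Within groups, the relation to granulocyte markers was fitted for each gene as a slope on their mean log2 CPM, beside a mean for each group. Slopes were positive for all 36 members, with a median of 0.09 in mitotic and 0.07 in replication members and 0 over all genes. A slope of 0.09 is a rise of 1.06-fold in CPM for each unit of that mean. The edgeR test called 12 of 36 members, all mitotic and all positive, beside 3.02% of all genes positive and 0.0742% negative. Plk1 had the largest slope at 0.15 (SE 0.03, edgeR adjusted p = 0.0129), followed in p by Tpx2 at 0.08 (SE 0.01, edgeR adjusted p = 0.0205) and Aurkb at 0.11 (SE 0.02, edgeR adjusted p = 0.0206). The other 9 were Bub1b, Top2a, Nusap1, Kif11, Ccnb2, Birc5, Cdk1, Bub1 and Ube2c, with slopes of 0.08 to 0.12 and edgeR adjusted p from 0.0241 to 0.0483.

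No replication member passed the threshold, with edgeR adjusted p from 0.0556 to 0.346. All 9 had an unadjusted edgeR p under 0.05, beside 10.3% of all genes positive at that level. The nearest were Tyms at 0.09 (SE 0.02, edgeR adjusted p = 0.0556), Mcm5 at 0.10 (SE 0.02, edgeR adjusted p = 0.0719) and Rrm2 at 0.11 (SE 0.03, edgeR adjusted p = 0.0927). Cdc6 was first among G1/S genes at 0.11 (SE 0.04, edgeR adjusted p = 0.236). Whether the slopes of mitotic and replication genes differ was not tested.

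The number of called slopes rested on single libraries, while the medians moved little. Without ERalphaKO placebo library 3 the count was 0, with 25 members at an unadjusted p under 0.05, a mitotic median of 0.07 and a replication median of 0.06. It was 1 without WT E2 library 3 or ERalphaKO E2 library 2, 2 without ERalphaKO E2 library 1, 4 without ERalphaKO placebo library 2 and 6 without ERalphaKO E2 library 3. It was 5 without any 1 of WT placebo libraries 1 and 2, WT E2 libraries 1 and 2 and ERalphaKO placebo library 1, and 18 without ERalphaKO placebo library 4. DESeq2 called 23 members, for which no DESeq2 share of all genes is given here. With erythroid or B-lineage markers as the slope, edgeR called 0.

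**Figure D5:**
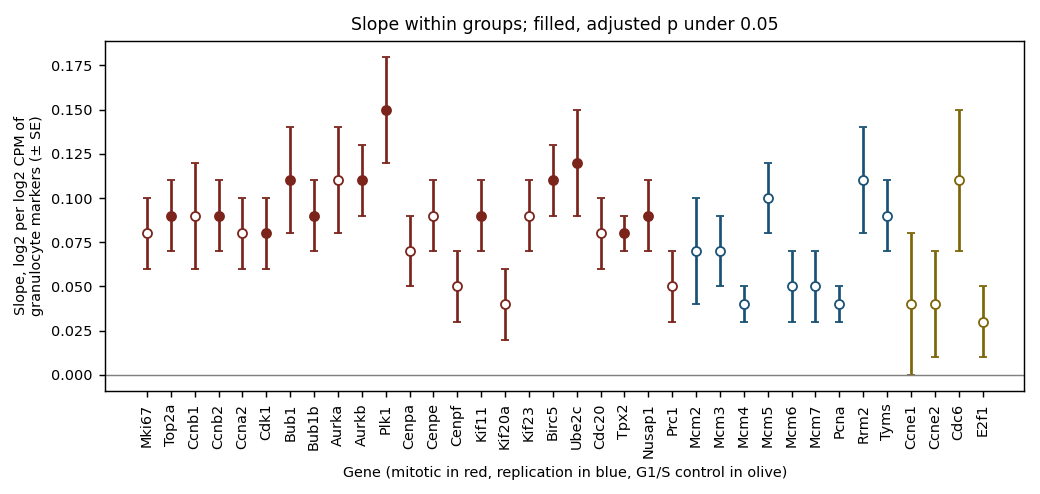
Each point is the edgeR slope of 1 member's log2 CPM on the mean log2 CPM of the granulocyte markers within groups, with its SE as a bar, filled where the adjusted p was under 0.05. All 36 slopes are positive, the 12 filled points are mitotic genes, and Plk1 is highest at 0.15.

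Further genes of the same pathways came from lists of 122 genes. Over all genes, edgeR called 3.02% of slopes on granulocyte markers positive and 0.0742% negative. Of 44 other mitotic genes, 9 had a called positive slope on granulocyte markers, led by Cdca8, a passenger complex subunit, at 0.12 (edgeR adjusted p = 0.0199) and Racgap1, which acts in cytokinesis, at 0.09 (edgeR adjusted p = 0.0267). Next came the motor Kif4 at 0.08 (edgeR adjusted p = 0.035) and Cdca3 at 0.1 (edgeR adjusted p = 0.0369). Of 36 other replication genes, 1 was called, Gmnn, the inhibitor of origin licensing, at 0.11 (edgeR adjusted p = 0.0364). Among 22 D cyclins, CDKs, pocket proteins and E2F factors, 1 was called, E2f8, a repressor of the E2F family, at 0.19 (edgeR adjusted p = 0.0314). In both of these lists, 1 called gene is near the share over all genes. Of 20 CDK inhibitors and quiescence genes none was called, and 1 (5%) had an unadjusted edgeR p under 0.05, beside 14.3% of all genes. The lowest p there was that of Cdkn2a, which encodes p16, at -0.09 (edgeR adjusted p = 0.123).

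For E2 in WT, 0 of the 122 other genes passed the edgeR test, and 11 had an unadjusted p under 0.05, beside 8.14% of all genes. Median log2 fold changes were -0.37 for other mitotic genes, with 40 of 44 negative, and -0.15 for other replication genes, with 29 of 36 negative, beside 50.9% of all genes. In ERalphaKO again 0 passed, with 35 at an unadjusted p under 0.05 beside 5.7% of all genes, and the medians were -0.59 (43 of 44 negative) and -0.22 (33 of 36 negative), beside 50% negative over all genes. Other mitotic genes thus lay lower than other replication genes in both genotypes, as the members did. The lowest p belonged in WT to Pbk at -0.81 (edgeR adjusted p = 0.429) and Anln at -0.72 (edgeR adjusted p = 0.481) among mitotic, and to Pole2 at -0.30 (edgeR adjusted p = 0.58) and Rfc5 at -0.20 (edgeR adjusted p = 0.7) among replication genes. In ERalphaKO it belonged to Cdc25b at -0.43 and Kif2c at -0.81, and to Cdc7 at -0.76 and Pold1 at -0.44, each with an edgeR adjusted p of 0.848.

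Under placebo the genotype medians were 0.31 for both other mitotic and other replication genes, and 0 of the 122 were called, with 35 at an unadjusted edgeR p under 0.05, beside 8.93% of all genes. Pold1 (0.46, edgeR adjusted p = 0.37), Pola1 (0.47, edgeR adjusted p = 0.396), Smc4 (0.31, edgeR adjusted p = 0.44) and Kif15 (1.05, edgeR adjusted p = 0.457) were lowest in p. E2f2, an activator E2F, was at 14.3 and 9.6 CPM in WT placebo, 4.77, 5.46 and 9.99 in WT E2, 41.4, 43.3, 53.1 and 29.6 in ERalphaKO placebo, and 36.1, 8.41 and 23.2 in ERalphaKO E2. Its ERalphaKO placebo libraries lay far above all WT libraries, at a log2 fold change of 1.81 (SE 0.51, edgeR adjusted p = 0.386), and it was higher in ERalphaKO E2 libraries 1 and 3 than in library 2. Cdkn1c, the CDK inhibitor p57, went the other way at -0.61 (SE 0.15, edgeR adjusted p = 0.33).

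Of the 122 genes of these lists, 1 was called between genotypes under E2. Over all genes 0.452% were called higher and 0.647% lower, so 1 of 122 is near that share. Gas6, a secreted ligand of TAM receptors that was first found in growth-arrested cells, was at 465 and 447 CPM in WT placebo, 662, 627 and 544 in WT E2, 377, 395, 362 and 370 in ERalphaKO placebo, and 389, 363 and 376 in ERalphaKO E2. It was lower in each ERalphaKO library than in any WT library, and within WT the E2 libraries lay above placebo. Gas6 fell by 0.70 in ERalphaKO E2 against WT E2 (SE 0.09, edgeR adjusted p = 0.0032). Its E2 difference in WT was 0.42 (SE 0.10, edgeR adjusted p = 0.143). In ERalphaKO placebo against WT E2, the contrast added after the others had been seen, edgeR called 8 of the 122 genes higher and 1 lower. Over all genes 1.23% were called higher and 1.4% lower. The higher genes were Cdc7, Pold1, Uhrf1 and Lig1 of 36 other replication genes, Smc2, Ncapd2 and Foxm1 of 44 other mitotic genes, and E2f2. The lower gene was Gas6. Foxm1, a factor that activates mitotic genes, was at 21.4 and 21.3 CPM in WT placebo, 14.7, 14.4 and 17.7 in WT E2, 25.2, 20.4, 33.5 and 24.8 in ERalphaKO placebo, and 21.2, 20 and 16.3 in ERalphaKO E2. It rose by 0.74 in that contrast (SE 0.16, edgeR adjusted p = 0.0413).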

How the data were processed

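RNA of 12 libraries was enriched for polyadenylated transcripts with an Illumina TruSeq kit, per the labels' protocols. Per the submitters' processing notes, bcl2fastq 2.17 and TopHat with build mm9 were used. Which counter and annotation were used, whether strand was kept and how multiply mapping reads were treated is not given in the sources used here. Raw counts per gene symbol were deposited by the authors, together with comparison tables of log2 fold changes and p-values. Their normalized table was not used here.

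Samples were grouped by genotype and treatment from the labels. Counts were fitted in edgeR 4.0.16 (R 4.3.3) with 1 mean per group over all 12 libraries (8 residual degrees of freedom), trimmed mean of M values scaling and a minimum count of 10, which kept 14832 genes. The biological coefficient of variation was 25.9%. Adjusted p-values are Benjamini-Hochberg over all tested genes, with a threshold of 0.05. SEs were derived from the fold change and the F statistic. The slope fit added the mean log2 CPM (prior count 2) of 15 granulocyte markers. DESeq2 1.42.0, other scalings and filters, marker covariates, a replicate block and left-out libraries were the alternatives. The code was tested on simulated data. Promoter letters were searched in RefSeq windows of build GRCm38.p6, and none of those coordinates were used with the mm9 counts.

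Members, lists and tests were chosen with earlier results of these data known. Values are printed for set lists of marker members, every member past the threshold, and the member of each class with the lowest p in each comparison. Ccnb2, Ccna2, Aurkb, Bub1, Bub1b, Ube2c, Kif11, Tpx2 and Nusap1 are named as members past a threshold, and Cdc20, Prc1 and Cenpf as members of lowest p or called in the authors' tables. Elane and the tissue genes were named as markers, and E2f2, Gas6 and Foxm1 from other lists by p.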

Additional observations from a re-analysis of the deposited data

Results flagged for a closer look

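Within the 4 ERalphaKO placebo libraries, library 3 stood apart from the rest for 11 of 39 values tested (36 members and 3 class means). The measure is the gap to the nearest library divided by the whole range, and it passes where it exceeds Dixon's critical value for groups of 4. It was 0.944 for Top2a, 0.892 for Ccnb1, 0.927 for Ccnb2, 0.895 for Bub1, 0.844 for Aurka and 0.863 for Plk1. It was 0.890 for Cenpa, 0.915 for Kif11, 0.892 for Kif23, 0.986 for Ube2c and 0.940 for Mcm5. Of these 11 genes 10 are mitotic and 1, Mcm5, is a replication gene. Chance passes about 1 in 20 groups, and the genes are not independent of each other. The same library had the highest granulocyte marker mean, 8.74 log2 CPM, and the highest skeletal muscle marker mean, 7.11. Its B-lineage mean of 3.42 was the lowest of its group. The part of these markers in its mitotic level was not tested.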

How the results depend on the processing

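All 5 comparisons with 0 called members stayed at 0 under each alternative run. Mitotic and replication medians moved by less than 1 SD between replicates (0.341 and 0.298 on the log2 scale), except for genotype. Within that limit the replication median for E2 in ERalphaKO still ran from -0.48 to -0.12, and the interaction medians changed sign, from -0.39 to 0.03 (mitotic) and from -0.20 to 0.22 (replication). Under placebo the mitotic median was 0.1 with the granulocyte covariate and 0.01 with the B-lineage covariate. The replication median under placebo was -0.36 with the B-lineage covariate and -0.15 with granulocyte and B-lineage covariates together, a fit added after seeing the data, and under E2 it was -0.09 with the B-lineage covariate. Under placebo the B-lineage covariate reversed Top2a to -0.04, Pcna to -0.18 and Cdc6 to -0.86, and both covariates gave Pcna -0.09 and Cdc6 -0.61.

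For ERalphaKO placebo against WT E2, 4 called members became 19 with DESeq2, 2 with the granulocyte, 1 with the muscle and 0 with the erythroid or B-lineage covariate, and 0 when only the groups compared were fitted. Leaving out 1 library gave 0 to 9. The mitotic median was 0.42 with the granulocyte and 0.42 with the B-lineage covariate, and the replication median 0.02 with the latter. As between the placebo groups, B-lineage marker means did not overlap here, so that covariate and the contrast cannot be told apart.

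The 12 called slopes became 23 with DESeq2 and 2 with early granulocyte markers alone (added after seeing the data). They became 0 with erythroid markers, with B-lineage markers, and without ERalphaKO placebo library 3 and ERalphaKO E2 library 1 together. Leaving out 1 library gave 0 to 18. The replication median slope was 0.09 on erythroid and 0.11 on B-lineage markers. The cause was not tested in any of these.

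Same-numbered libraries of different groups did not all deviate together. Correlations ran from -0.33 to 0.50 over 15 pairs, with 9 over 0.1, among them the 6 pairs of libraries numbered 2 (0.21 to 0.47). These correlations do not settle whether the numbers pair samples, and the main fits did not use the numbers. The replicate block gave 0 called slopes, a replication median slope of 0.03, and 6 called members for ERalphaKO placebo against WT E2. For E2 the block gave 22 members at an unadjusted edgeR p under 0.05 in WT and 28 in ERalphaKO, with 0 called. Without it these counts were 4 and 18. Shares of all genes at that level are not given here for the block, DESeq2, covariate fits or left-out libraries. Counts of members from those fits thus have no background beside them. No scaling moved the median of all genes by over 0.1. With 2 to 4 libraries a group, differences below the spread between libraries were not detectable, and for Cdc6, with as few as 26 counts in a library, counting error adds to that spread.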
